A study of Mus musculus with 13 samples.

Results

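The genes described here are 36 genes whose products are found on the surface, in the lysosomes or in the signalling machinery of macrophages. They were taken by gene symbol from a given list. The list sets no threshold on a measured value, but it was drawn up with earlier results of these data known, so counts of called members are descriptive. The genes were followed across every group of the series. All 36 were among the 27141 genes of the count table, and all 36 were among the 19884 genes that passed the filter on low counts and were tested. The libraries were made from damaged hepatocytes (dHeps), which are liver cells isolated from adult wild-type C57BL/6 mice of both sexes after repeated injections of carbon tetrachloride, a toxin that is metabolised in the liver and scars it. All groups share that injury, the collagenase and pronase perfusion that released the cells, and 16 days of culture in serum-free maintenance medium. DMSO was the solvent control with 2 libraries, and 5C was the full cocktail with 2 libraries. The cocktail held GSK429286A (G), which inhibits the kinase ROCK, CID755673 (C), which inhibits protein kinase D, ETC-1002 (E), an activator of the energy sensor AMPK, forskolin (F), which activates adenylate cyclase, and a glycoside from plants, Salidroside (S). The groups 5C-F, 5C-E, 5C-G and 5C-C (2 libraries each) and 5C-S (1 library) received the cocktail without the compound named after the minus sign. The labels do not say whether the libraries of a group came from separate animals or cultures. The study's methods state in general that its replicates are biological ones. P-values measure the spread between these libraries, which may be in part technical. Libraries 1 and 2 of a group are named by their column in the tables, and the numbers pair nothing across groups.

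Macrophages are phagocytes. The liver holds a large resident population, the Kupffer cells, and takes in monocyte-derived macrophages after injury. Their survival and differentiation depend on the receptor encoded by Csf1r and on the transcription factor PU.1, the product of Spi1. They bind antibody-coated particles through Fc receptors, signal through adaptors that carry an ITAM motif, take up modified lipoproteins and microbes through scavenger receptors, secrete the complement protein C1q and digest their cargo in lysosomes. Hepatocytes, the cells named in the labels, do not normally make most of these proteins, with the exception of a few members such as Cd14 and Cd36 that hepatocytes or endothelial cells can also express.

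The libraries held 30195867 to 45491932 counts. The 36 members together took 1.08% and 1.09% of all counts in the DMSO libraries, 0.1815% and 0.1997% in 5C, 1.07% and 1.40% in 5C-G, 0.309% and 0.392% in 5C-C, 0.231% and 0.256% in 5C-E, 0.445% and 0.489% in 5C-F and 0.195% in 5C-S. Hepatocyte markers were abundant in every library, with 12 genes that summed to between 3514 FPKM (fragments per kilobase of gene, scaled to the library total) in a 5C-E library and 22720 FPKM in a 5C-F library, so the labelled cell type was present throughout. In bulk libraries like these, fewer macrophages, less RNA per macrophage and a change in other cells cannot be told apart. Which cells held the members' transcripts was not measured. The 2 libraries of 5C-G stood furthest apart over the members. Library 2 exceeded library 1 by a median of 0.55 on the log2 scale, against 0.31 for 5C-C, 0.16 for 5C, 0.03 for DMSO, 0.01 for 5C-E and -0.04 for 5C-F.

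The promoters of a few members are shown because PU.1, itself among the members, is a DNA-binding protein of the ETS family that prefers sites with the core letters GAGGAA. The 250 bases before the start of the canonical transcript were read from the mouse genome GRCm39, the build of the files, with GENCODE M39 gene models. GAGGAA was searched on both strands, and its reverse complement reads TTCCTC. It was present in 16 of the 36 members (44.4%) and in 4079 of 17390 protein-coding promoters of the same length (23.5%). The longer form GAGGAAGT, which contains GAGGAA, was present in C1qc and Fcer1g alone among the members (5.6%) and in 2.21% of all promoters. The 16 members with the short form were Csf1r, Spi1, Adgre1, Vsig4, C1qb, C1qc, Fcer1g, Tyrobp, Trem2, Marco, Cd68, Lyz2, Slc11a1, Ptprc, Cd52 and Cd86. A match is a description of letters and not a binding site, and its absence says only that the letters are not in this window. Capitals mark each match, on the strand of the gene and 5′ to 3′. C1qb (chr4:136613512-136613761, minus strand), C1qc (chr4:136620377-136620626, minus strand) and Fcer1g (chr1:171062220-171062469, minus strand) hold matches, and C1qa (chr4:136626162-136626411, minus strand), the neighbour of C1qb and C1qc on chromosome 4, is shown as a member without one.
C1qb: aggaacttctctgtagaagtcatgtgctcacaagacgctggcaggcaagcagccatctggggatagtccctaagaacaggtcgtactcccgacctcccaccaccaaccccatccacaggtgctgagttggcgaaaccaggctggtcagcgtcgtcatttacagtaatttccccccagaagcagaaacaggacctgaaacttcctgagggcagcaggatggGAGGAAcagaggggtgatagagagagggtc
C1qc: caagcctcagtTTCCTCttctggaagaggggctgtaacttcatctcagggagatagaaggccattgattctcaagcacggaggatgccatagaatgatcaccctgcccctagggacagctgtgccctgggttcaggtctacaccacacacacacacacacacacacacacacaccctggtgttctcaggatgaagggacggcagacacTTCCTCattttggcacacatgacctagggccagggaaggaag
Fcer1g: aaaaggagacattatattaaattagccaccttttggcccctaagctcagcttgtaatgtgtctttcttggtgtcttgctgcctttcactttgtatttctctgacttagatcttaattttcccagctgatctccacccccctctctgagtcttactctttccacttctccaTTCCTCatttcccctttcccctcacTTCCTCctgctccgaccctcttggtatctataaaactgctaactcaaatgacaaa
C1qa: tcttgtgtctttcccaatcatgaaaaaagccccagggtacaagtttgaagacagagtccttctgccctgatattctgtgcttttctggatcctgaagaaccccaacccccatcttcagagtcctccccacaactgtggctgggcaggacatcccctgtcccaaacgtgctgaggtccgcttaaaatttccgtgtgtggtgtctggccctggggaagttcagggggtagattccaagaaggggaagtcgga

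Most members were high in DMSO, low in 5C, back near or above the DMSO level in 5C-G, and between these levels in 5C-F. In 5C-C the members' log2 fold changes against 5C ran from 2.84 for C1qa, which was 2.13 without 5C-C library 2 and 1.62 under an offset for transcript GC and length, to -1.04 for Ptprc, which was -0.24 under that offset. In 5C-E and 5C-S most stayed near 5C. Cd14 and Cd36 followed neither the fall in 5C nor the rise in 5C-G, Fgr fell in 5C without a rise in 5C-G, and Ctsc, Clec4f and Lst1 were called in neither comparison. A gene is said to have risen or fallen where the adjusted p of edgeR's quasi-likelihood test, over all 19884 genes, was under 0.05 and the log2 fold change was beyond 1 in either direction, and such a gene is said to be called.

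**Figure D1:**
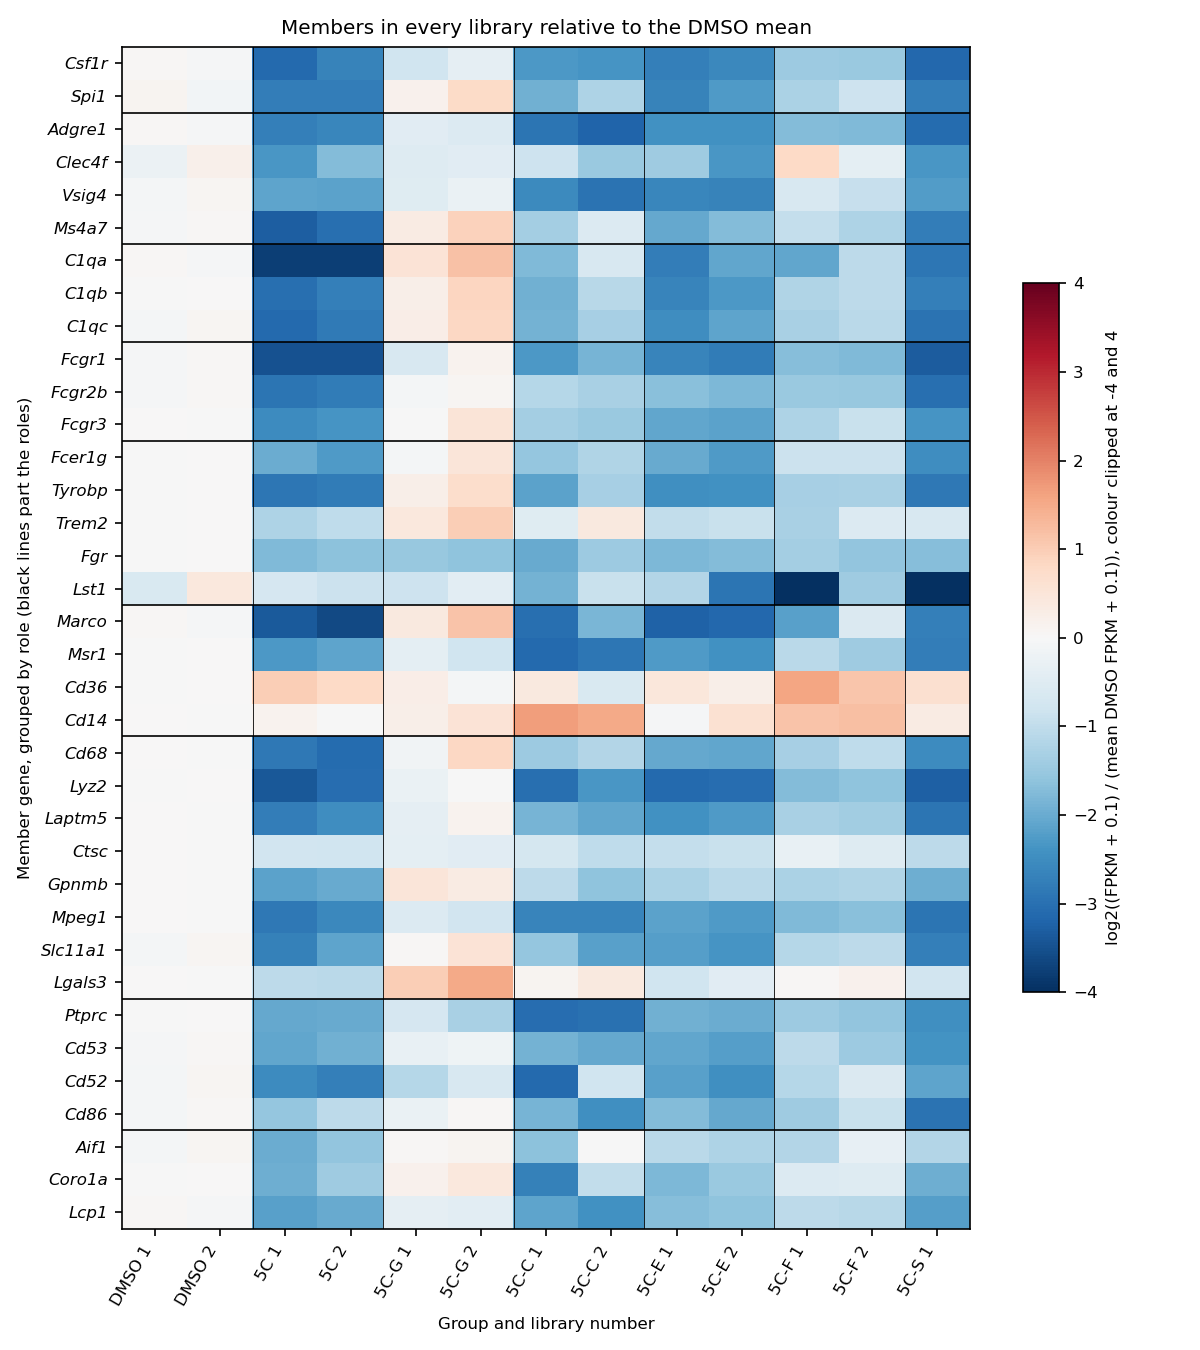
Each row is a member gene and each column a library. Colour gives log2 of FPKM + 0.1 over the mean DMSO value + 0.1, clipped at -4 and 4, and black lines part the roles. Most rows are pale in DMSO, which sets the scale, and in 5C-G, and blue in the other groups, while Cd36 and Cd14 are not blue in 5C.

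The receptor and the transcription factor that define the lineage both fell in 5C and both rose in 5C-G and 5C-F against 5C. Csf1r, the receptor for colony-stimulating factor 1, stood at 53.98 and 51.2 FPKM in DMSO, 6.01 and 8.101 in 5C, 29.97 and 40.9 in 5C-G, 10.6 and 10.2 in 5C-C, 7.77 and 8.76 in 5C-E, 19.3 and 18.9 in 5C-F and 5.91 in 5C-S. The 5C-G and 5C-F libraries lay above every 5C library and below every DMSO library. It fell in 5C against DMSO (log2 fold change -2.97, SE 0.22, adjusted p = 1.4e-07) and rose in 5C-G against 5C (log2 fold change 2.48, SE 0.22, adjusted p = 8.2e-07) and in 5C-F against 5C (log2 fold change 1.54, SE 0.21, adjusted p = 5.2e-04). Reads of Csf1r may include some of Hmgxb3, which overlaps it on the opposite strand, because the strand setting of the counting is not given in the sources used here. Spi1, which encodes PU.1, stood at 26.9 and 23.2 FPKM in DMSO, 3.63 and 3.56 in 5C, 28.1 and 42.6 in 5C-G, 6.51 and 10.5 in 5C-C, 3.84 and 5.15 in 5C-E, 10.3 and 13.9 in 5C-F and 3.59 in 5C-S. Its 5C-G libraries lay above both DMSO libraries, though not past the threshold against DMSO (log2 fold change 0.58, SE 0.27, adjusted p = 0.158). Spi1 fell in 5C (log2 fold change -2.88, SE 0.29, adjusted p = 3.0e-06) and rose 10.95-fold in 5C-G over 5C (log2 fold change 3.45, SE 0.29, adjusted p = 6.2e-07). It also rose in 5C-F (log2 fold change 1.85, SE 0.28, adjusted p = 9.4e-04) and in 5C-C (log2 fold change 1.42, SE 0.28, adjusted p = 8.8e-04), the last of these neither under an offset that corrects for transcript GC content and length (log2 fold change 0.57) nor without 5C-C library 2 (0.99).

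Surface proteins of resident macrophages differed among themselves. Adgre1 encodes F4/80, the antigen most used to mark mouse macrophages. Its level was 80.6 and 74.5 FPKM in DMSO, 11.5 and 12.6 in 5C, 56.2 and 53.3 in 5C-G, 10.1 and 8.25 in 5C-C, 14.5 and 14.4 in 5C-E, 23.01 and 22.9 in 5C-F and 9.06 in 5C-S. Both 5C-C libraries lay below both 5C libraries, a difference that did not pass the test. Adgre1 fell in 5C (log2 fold change -2.76, SE 0.17, adjusted p = 1.9e-08), rose in 5C-G (log2 fold change 2.32, SE 0.17, adjusted p = 1.8e-07) and rose in 5C-F by an amount close to the fold threshold (log2 fold change 1.03, SE 0.17, adjusted p = 0.0013). Without 5C library 1 or 5C-F library 1 the 5C-F fold change dropped under the threshold, at 0.95 and 0.98, as it did with library totals only (0.93) and by limma. Vsig4, the complement receptor CRIg of Kupffer cells, was at 156 and 172 FPKM in DMSO, 38.2 and 37.4 in 5C, 116 and 138 in 5C-G, 27.97 and 21.03 in 5C-C, 26.6 and 25.5 in 5C-E, 105 and 87.3 in 5C-F and 34.98 in 5C-S. The 5C-C and 5C-E libraries were the lowest. Vsig4 fell in 5C (log2 fold change -2.19, SE 0.2, adjusted p = 1.0e-06) and rose in 5C-G (log2 fold change 1.89, SE 0.2, adjusted p = 4.9e-06) and 5C-F (log2 fold change 1.45, SE 0.19, adjusted p = 4.3e-04). Ms4a7, a tetraspan membrane protein of macrophages, averaged 7.59 ± 0.408 FPKM (SD, n = 2) in DMSO, 0.772 ± 0.118 in 5C, 3.51 ± 0.51 in 5C-F, 1.99 ± 0.305 in 5C-E, 3.999 ± 1.58 in 5C-C and 12.1 ± 3.45 in 5C-G. Like Fcgr2b, it rose against 5C in each of the 4 removals with 2 libraries, from 1.29 on the log2 scale in 5C-E to 4.12 in 5C-G. The rise of Ms4a7 in 5C-E was not called when any 1 of the 4 libraries was left out, nor by limma. Clec4f, a lectin restricted to Kupffer cells in mice, was near the detection limit everywhere. Its counts were 30 and 37 in DMSO, 0 and 4 in 5C, 20 and 24 in 5C-G, 14 and 9 in 5C-C, 8 and 0 in 5C-E, 75 and 30 in 5C-F and 0 in 5C-S, where a count of 0 allows up to 3 counts. The highest level, in library 1 of 5C-F, was 0.784 FPKM, and Clec4f was called in no comparison by edgeR with the filter on low counts and all libraries. DESeq2, and edgeR with no filter, called it lower in 5C than in DMSO and higher than 5C in both 5C-G and 5C-F. A fit of the 2 groups alone called it in 5C and in 5C-E against DMSO and in 5C-F against 5C, and limma on log2(FPKM + 0.1) called it in 5C-F against 5C. Timd4, another resident Kupffer marker outside the members, was at 0.629 and 0.797 FPKM in DMSO and at or under 0.286 FPKM in all other libraries.

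The C1q chains fell to low levels in 5C and rose in 5C-G to levels above DMSO that did not differ from it past the threshold. C1qa, C1qb and C1qc encode the 3 chains of C1q, the recognition protein of the classical complement pathway, and lie next to each other on chromosome 4. C1qa was at 825 and 772 FPKM in DMSO, 58.7 and 58.2 in 5C, 1160.3 and 1793 in 5C-G, 233 and 510.2 in 5C-C, 117 and 189.8 in 5C-E, 189.7 and 387 in 5C-F and 107 in 5C-S. Every other library lay above both 5C libraries, and the 5C-G libraries lay above both DMSO libraries. C1qb was at 809.7 and 828 FPKM in DMSO, 100.1 and 123 in 5C, 961 and 1501 in 5C-G, 217 and 378 in 5C-C, 131 and 167 in 5C-E, 358 and 394 in 5C-F and 124 in 5C-S. C1qc was at 326 and 357 FPKM in DMSO, 39.6 and 47.6 in 5C, 409.9 and 612 in 5C-G, 91.9 and 135 in 5C-C, 60.9 and 78.6 in 5C-E, 138 and 161 in 5C-F and 44.03 in 5C-S. For all 3 chains both 5C-G libraries lay above both DMSO libraries, and every other library lay below them. The chains fell in 5C with log2 fold changes of -3.85 (SE 0.39), -2.95 (SE 0.28) and -3.04 (SE 0.26). They rose in 5C-G against 5C by 4.81, 3.62 and 3.7, the rise of C1qa (28.1-fold) being the largest log2 fold change of a member in that comparison. All 3 also rose in 5C-F and in 5C-C against 5C, with C1qa at 2.39 and 2.84. The rise of C1qc in 5C-C was not called under the GC and length offset (0.84). That of C1qa in 5C-F was not called by limma with every gene kept (adjusted p = 0.0575). In 5C-E, C1qa did not pass (log2 fold change 1.32, SE 0.36, adjusted p = 0.056). It passed there with library totals only, with no filter on low counts, under the GC and length offset, in a fit of the 2 groups alone and without 5C-E library 1.

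Fc receptors bind the constant part of antibodies. Fcgr1, the high-affinity IgG receptor, was at 9.79 and 10.4 FPKM in DMSO, 0.805 and 0.805 in 5C, 6.41 and 11.3 in 5C-G, 1.98 and 2.72 in 5C-C, 1.55 and 1.36 in 5C-E, 3.04 and 2.89 in 5C-F and 0.917 in 5C-S. Its fall in 5C was the second steepest of a called member after C1qa (log2 fold change -3.72, SE 0.34, adjusted p = 9.7e-07), and 5C-G returned it to values on either side of DMSO (log2 fold change 3.62, SE 0.33, adjusted p = 1.4e-06, against 5C). Fcgr2b, the inhibitory receptor, was at 20.7 and 22.4 FPKM in DMSO, 2.77 and 2.98 in 5C, 20.4 and 22.5 in 5C-G, 9.71 and 8.75 in 5C-C, 6.67 and 6.098 in 5C-E, 7.68 and 7.52 in 5C-F and 2.55 in 5C-S. The ranges of 5C-C, 5C-E and 5C-F all lay above 5C without overlap. Against 5C, Fcgr2b rose by 3.04 (SE 0.19) on the log2 scale with G removed, by 1.84 (SE 0.18) with C removed, by 1.5 (SE 0.18) with F removed and by 1.08 (SE 0.18) with E removed, the last not called without 5C library 1 (1.01). Fcgr3, the low-affinity activating receptor, was at 155 and 151 FPKM in DMSO, 26.6 and 30.04 in 5C, 152 and 217 in 5C-G, 59.4 and 54.7 in 5C-C, 36.4 and 34.6 in 5C-E, 65.1 and 83.3 in 5C-F and 29.6 in 5C-S. Fcgr3 fell in 5C (log2 fold change -2.51, SE 0.21, adjusted p = 5.1e-07) and rose in 5C-G (log2 fold change 2.86, SE 0.22, adjusted p = 2.0e-07). Fcgr2b and Fcgr3 are closely related in sequence, so the authors' counting may have split reads between them, and values of the single receptors are less certain than their sum.

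Among the signalling genes, Tyrobp, Fcer1g and Trem2 fell in 5C and rose in 5C-G, and Fgr fell without a rise in 5C-G. Tyrobp (DAP12) and Fcer1g (the Fc receptor gamma chain) carry an ITAM on behalf of receptors that have none. Tyrobp was at 212 and 214 FPKM in DMSO, 28.5 and 30.8 in 5C, 253 and 346 in 5C-G, 48.02 and 84.2 in 5C-C, 38.6 and 39.5 in 5C-E, 84.9 and 86.1 in 5C-F and 29.4 in 5C-S. Fcer1g was at 151 and 154 FPKM in DMSO, 38.5 and 31.8 in 5C, 146 and 213 in 5C-G, 51.9 and 65.7 in 5C-C, 38.04 and 31.4 in 5C-E, 83.8 and 84.9 in 5C-F and 27.1 in 5C-S. The 5C-G libraries lay above both DMSO libraries for Tyrobp and on either side of them for Fcer1g, and for both adaptors 5C-C and 5C-F lay between 5C and DMSO. Tyrobp fell in 5C (log2 fold change -2.92, SE 0.26, adjusted p = 8.7e-07) and rose in 5C-G (log2 fold change 3.49, SE 0.27, adjusted p = 2.2e-07), and Fcer1g did the same by -2.19 and 2.51. Trem2, a lipid-sensing receptor that pairs with DAP12 and is associated with macrophages of injured tissue, was at 36.5 and 37.8 FPKM in DMSO, 15.6 and 18.4 in 5C, 50.2 and 73.8 in 5C-G, 26.7 and 48.7 in 5C-C, 18.9 and 19.8 in 5C-E, 15.1 and 25.6 in 5C-F and 23.9 in 5C-S. Its 5C-G libraries exceeded both DMSO libraries, and its 5C-C range contained the DMSO values. The fall of Trem2 in 5C was among the smaller ones (log2 fold change -1.2, SE 0.29, adjusted p = 0.014) and was not called when any 1 of the 4 libraries was left out, with log2 fold changes from -1.34 to -1.07. The rise in 5C-G (log2 fold change 2.02, SE 0.29, adjusted p = 1.2e-04) was called with any 1 library left out. In 5C-C, Tyrobp and Trem2 rose by 1.33 and 1.32 on the log2 scale, but were not called without 5C-C library 2 (0.83 and 0.79) or under the GC and length offset (0.22 and 0.22). Fgr, a Src-family kinase of myeloid cells, averaged 1.62 ± 0.00446 FPKM in DMSO and only 0.428 ± 0.0268 in 5C, 0.528 ± 0.0668 in 5C-F, 0.409 ± 0.0157 in 5C-E, 0.424 ± 0.139 in 5C-C and 0.483 ± 0.0221 in 5C-G. It fell in 5C (log2 fold change -1.99, SE 0.43, adjusted p = 0.0067), did not pass in 5C-G against 5C (log2 fold change 0.31, SE 0.42, adjusted p = 0.645), and was lower in 5C-G than in DMSO (log2 fold change -1.68, SE 0.42, adjusted p = 0.017). The fall in 5C was not called when any 1 library was left out, and that in 5C-G against DMSO was not called without either DMSO library or without 5C-G library 2. Lst1, a small leukocyte protein, had 0 to 41 counts per library and was called in no comparison by edgeR with all libraries. Against DMSO it was called in 5C-F by limma on log2(FPKM + 1) and without 5C-F library 2.

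Of the scavenger and pattern receptors, Marco and Msr1 fell in 5C and rose in 5C-G, and Cd14 and Cd36 did neither. Marco, a scavenger receptor for bacteria, was at 17.1 and 15.9 FPKM in DMSO, 1.52 and 1.27 in 5C, 21.7 and 36.7 in 5C-G, 1.97 and 4.54 in 5C-C, 1.65 and 1.78 in 5C-E, 3.62 and 10.95 in 5C-F and 2.42 in 5C-S. Both 5C-G libraries were above both DMSO libraries, and the 2 libraries of 5C-C and of 5C-F lay far apart. Marco fell in 5C (log2 fold change -3.64, SE 0.47, adjusted p = 4.9e-05) and rose 23.4-fold in 5C-G (log2 fold change 4.55, SE 0.48, adjusted p = 6.1e-06). It rose in 5C-F (log2 fold change 2.47, SE 0.45, adjusted p = 0.0035), but not without 5C library 2 or 5C-F library 2, which gave log2 fold changes of 2.37 and 1.52. Msr1, the class A scavenger receptor, was at 16.96 and 17.4 FPKM in DMSO, 3.395 and 3.905 in 5C, 13.1 and 9.93 in 5C-G, 1.92 and 2.22 in 5C-C, 3.47 and 3.11 in 5C-E, 8.04 and 6.32 in 5C-F and 2.44 in 5C-S. The 5C-C libraries were the lowest of all, below both 5C libraries, although the change did not reach the fold threshold (log2 fold change -0.65, SE 0.2, adjusted p = 0.016). Msr1 fell in 5C (log2 fold change -2.31, SE 0.2, adjusted p = 7.4e-07) and rose in 5C-G (log2 fold change 1.78, SE 0.2, adjusted p = 9.7e-06) and 5C-F (log2 fold change 1.08, SE 0.2, adjusted p = 0.0031), the last not without library 1 of 5C or of 5C-F (0.97 and 0.85).

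Cd14, the coreceptor for bacterial lipopolysaccharide, was at 53.9 and 53.1 FPKM in DMSO, 59.1 and 52.8 in 5C, 63.6 and 78.5 in 5C-G, 172 and 154 in 5C-C, 51.6 and 81.99 in 5C-E, 117 and 122 in 5C-F and 66.7 in 5C-S. Both DMSO libraries lay within the 5C range, and the highest libraries were those of 5C-C and 5C-F. Cd14 did not pass the test in 5C against DMSO, rose in 5C-C (log2 fold change 1.71, SE 0.21, adjusted p = 3.9e-05) and in 5C-F (log2 fold change 1.2, SE 0.21, adjusted p = 0.0025) against 5C, a call that ended without 5C library 2 and under the GC and length offset (0.87), and was higher than DMSO in both groups (log2 fold change 1.7, SE 0.21, adjusted p = 1.9e-05, and log2 fold change 1.18, SE 0.21, adjusted p = 0.0012, respectively), the second of these not under the GC and length offset (0.91). It was the only member lower in 5C-G than in 5C-C (log2 fold change -1.22, SE 0.21, adjusted p = 8.8e-04), a call that ended without 5C-G library 1 at a log2 fold change of -0.99. Cd36, a receptor for fatty acids and oxidised lipoproteins, was at 19.7 and 20.1 FPKM in DMSO, 39.6 and 34.5 in 5C, 23.8 and 18.998 in 5C-G, 26.2 and 12.97 in 5C-C, 27.4 and 23.3 in 5C-E, 59.6 and 42.8 in 5C-F and 31.1 in 5C-S. Both 5C libraries lay above both DMSO libraries, but the difference did not pass (log2 fold change 0.82, SE 0.25, adjusted p = 0.063). Cd36 was higher in 5C-F than in DMSO (log2 fold change 1.39, SE 0.25, adjusted p = 0.0014) and was lower with G removed than with F removed (log2 fold change -1.24, SE 0.25, adjusted p = 0.0028), the last not without 5C-F library 1 (-0.93), under the GC and length offset (-0.98) or by limma with every gene kept (adjusted p = 0.0605). It fell in 5C-C against 5C only without 5C-C library 1 (-1.31), and with all libraries the fold change was -0.77.

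**Figure D2:**
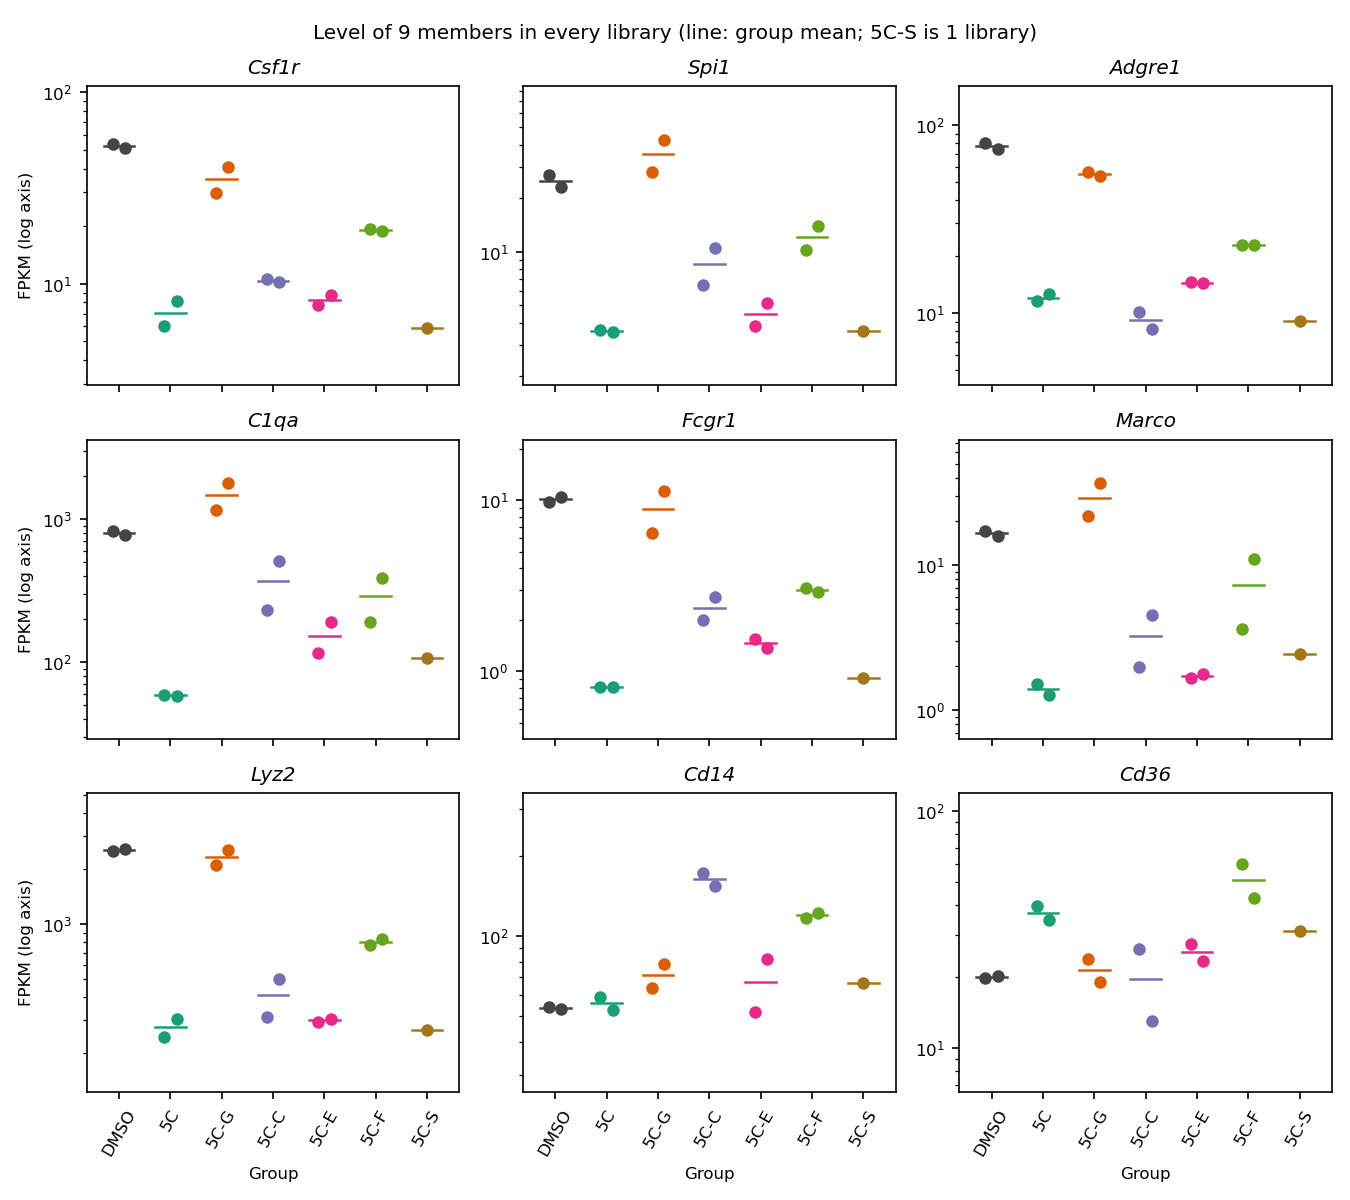
FPKM on a log axis in every library for 9 members, with 1 point per library and a line at the group mean. Apart from Cd14 and Cd36, the panels share a drop from DMSO to 5C and a return in 5C-G, while Cd14 peaks in 5C-C and Cd36 in 5C-F.

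Lysosomal and secretory members included the most abundant transcript. Lyz2, lysozyme of macrophages, was at 2509 and 2572 FPKM in DMSO, 244 and 306 in 5C, 2107 and 2539 in 5C-G, 313 and 506 in 5C-C, 294 and 305 in 5C-E, 766 and 826 in 5C-F and 265 in 5C-S. One DMSO library lay inside the 5C-G range and the other just above it, and 5C, 5C-E and 5C-S shared a low level. Lyz2 fell in 5C (log2 fold change -3.28, SE 0.23, adjusted p = 8.5e-08), rose 9.33-fold in 5C-G (log2 fold change 3.22, SE 0.23, adjusted p = 1.7e-07) and rose in 5C-F (log2 fold change 1.63, SE 0.22, adjusted p = 4.8e-04). Lyz2 has a near-identical neighbour, Lyz1, and reads shared by both may have been split or dropped. Cd68, a lysosomal membrane glycoprotein, was at 363 and 362 FPKM in DMSO, 50.1 and 42.5 in 5C, 327 and 639 in 5C-G, 132 and 161 in 5C-C, 87.9 and 85.02 in 5C-E, 143 and 179 in 5C-F and 63.3 in 5C-S. Library 2 of 5C-G was the highest of all and library 1 lay below DMSO. Cd68 fell in 5C (log2 fold change -3.04, SE 0.28, adjusted p = 1.1e-06) and rose in 5C-G, 5C-F and 5C-C against 5C, by 3.55, 1.89 and 1.83. Gpnmb, a glycoprotein of lysosome-rich and lipid-laden macrophages, was at 92.6 and 91.3 FPKM in DMSO, 20.7 and 22.6 in 5C, 128 and 116 in 5C-G, 44.2 and 29.9 in 5C-C, 38.4 and 43.1 in 5C-E, 37.9 and 40.1 in 5C-F and 23.5 in 5C-S. All removal libraries lay above both 5C libraries. Gpnmb fell in 5C (log2 fold change -2.16, SE 0.18, adjusted p = 5.1e-07) and rose in 5C-G (log2 fold change 2.62, SE 0.19, adjusted p = 1.4e-07), and with all libraries its log2 fold changes in the other removals were under the fold threshold, at 0.93 without C, 0.84 without E and 0.94 without F. Under the GC and length offset it passed in 5C-C (1.1) and 5C-F (1.01). It also passed in both without 5C library 2 (1.04 and 1.03) and in 5C-C without 5C-C library 2 (1.16).

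Lgals3, the lectin galectin-3, was at 89.8 and 87.9 FPKM in DMSO, 42.8 and 42.4 in 5C, 175 and 253 in 5C-G, 96.2 and 118 in 5C-C, 51.01 and 64.7 in 5C-E, 92.6 and 100.4 in 5C-F and 52.7 in 5C-S. Its 5C-G libraries were far above both DMSO libraries, and it was the only member called higher in 5C-G than in DMSO (log2 fold change 1.35, SE 0.21, adjusted p = 0.0013), though not without 5C-G library 2 (0.94) or under the GC and length offset (0.81). It fell in 5C by less than most (log2 fold change -1.13, SE 0.21, adjusted p = 0.0022) and rose in 5C-G (log2 fold change 2.48, SE 0.22, adjusted p = 1.0e-06), 5C-C (1.5) and 5C-F (1.28), the last 2 not under the offset (0.77 and 0.87). Ctsc, the protease cathepsin C, was at 24.3 and 23.7 FPKM in DMSO, 14.1 and 13.9 in 5C, 18.3 and 17.4 in 5C-G, 14.5 and 11.7 in 5C-C, 12.4 and 12.9 in 5C-E, 19.6 and 16.9 in 5C-F and 11.7 in 5C-S. Its DMSO libraries were above all others, and the change in 5C was under the fold threshold (log2 fold change -0.85, SE 0.17, adjusted p = 0.0035). Ctsc was called lower in 5C-E than in DMSO (log2 fold change -1.07, SE 0.17, adjusted p = 3.9e-04), but not without 5C-E library 1, with library totals only, by limma or under the GC and length offset (-0.93). The remaining 3 genes of this role all fell in 5C and rose in 5C-G. They were Laptm5, a lysosomal membrane protein of blood cells (-2.7 and 2.69), Mpeg1, the pore-forming perforin-2 (-2.8 and 2.19), and Slc11a1, the phagosomal metal transporter NRAMP1 (-2.48 and 2.88).

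The general leukocyte genes ranged in DMSO from Cd86 at 2.02 ± 0.131 FPKM to Cd53 at 92.96 ± 4.45 FPKM (SD, n = 2). Ptprc, which encodes CD45, the antigen of all white blood cells, was at 3.08 and 3.19 FPKM in DMSO, 0.683 and 0.709 in 5C, 1.92 and 1.21 in 5C-G, 0.296 and 0.309 in 5C-C, 0.754 and 0.724 in 5C-E, 1.07 and 0.984 in 5C-F and 0.49 in 5C-S. The 5C-G libraries lay between 5C and DMSO, and 5C-C was lowest. Ptprc fell in 5C (log2 fold change -2.25, SE 0.22, adjusted p = 1.8e-06), rose in 5C-G (log2 fold change 1.28, SE 0.21, adjusted p = 3.7e-04) and with all libraries was the only member that fell in 5C-C against 5C (log2 fold change -1.04, SE 0.22, adjusted p = 0.0014). That call ended without 5C library 2 or 5C-C library 1 (-0.97 and -0.96), by limma and under the GC and length offset (-0.24). Cd53, a tetraspanin, Cd52, a small glycosylphosphatidylinositol-anchored protein, and Cd86, a costimulatory ligand, fell in 5C by -2.08, -2.74 and -1.47 and rose in 5C-G by 1.91, 1.94 and 1.43. Actin-binding proteins of leukocytes also fell in 5C and rose in 5C-G. Coro1a (coronin 1A) and Lcp1 (L-plastin) fell by -1.75 and -2.19 and rose by 2.13 and 1.86, and Aif1, the microglial and macrophage marker IBA1, fell by -1.99. The falls of Cd86 and Aif1 were not called when any 1 of the 4 libraries was left out, and that of Coro1a was not called without 5C library 1. Genes on the opposite strand overlap Cd52, Aif1, Coro1a and Lcp1, and a gene on the same strand overlaps Ptprc, so reads of these could be mixed.

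Set against all genes, the fall in 5C covered nearly the whole list. Of the 36 members, 31 fell in 5C against DMSO, where 2.89% of all tested genes fell. Over all genes 1.66% rose in edgeR. No member rose past the fold threshold in edgeR, DESeq2 or limma, or at an unadjusted p under 0.05. The members' median log2 fold change was -2.49, and the median over all genes was 0.01. The 5 that did not pass were Cd36, Clec4f, Ctsc, Lst1 and Cd14. Leaving out 1 library gave 26 or 27 members, and the GC and length offset gave 31.

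Removal of the ROCK inhibitor went the other way. In 5C-G against 5C, 30 members rose, where 7.47% of all tested genes rose, with a median of 2.48 against -0.01 over all genes. Over all genes 5.64% fell in edgeR. No member fell past the fold threshold in edgeR, DESeq2 or limma, or at an unadjusted p under 0.05. The 6 that did not pass were Fgr, Cd36, Clec4f, Ctsc, Lst1 and Cd14. Without 5C library 1, Cd52, Cd86 and Aif1 were also not called, Cd52 was not called without 5C library 2, and Cd52 and Cd86 were not called without 5C-G library 2. With library totals as the only scaling, the median of all genes ranged from -0.205 (5C-G against 5C-E) to 0.156 (5C-E against DMSO) over the comparisons and was -0.135 here, and all 30 members called in 5C-G were shared between the 2 scalings.

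Removal of forskolin gave a smaller change of the same sign. In 5C-F against 5C, 25 members rose, where 2.69% of all genes rose, with a median of 1.37 against -0.01 over all genes. Over all genes 2.15% fell in edgeR. No member fell past the fold threshold in edgeR, DESeq2 or limma, or at an unadjusted p under 0.05. The 11 that did not pass were Cd36, Cd53, Cd86, Clec4f, Ctsc, Fgr, Gpnmb, Lst1, Ptprc, Trem2 and Aif1. Under the GC and length offset Fcer1g, Coro1a, Msr1, Lgals3 and Cd14 were not called either, and Cd53 and Gpnmb were.

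Removal of the protein kinase D inhibitor split the list. In 5C-C against 5C, 16 members rose and Ptprc fell, with a median of 0.92 against 0.00 over all genes. Over all genes 9.65% rose and 10.5% fell, more than in any other removal. Those that rose were Spi1, Ms4a7, the 3 C1q chains, the 3 Fc receptors, Marco, Cd14, Cd68, Lgals3, Trem2, Tyrobp, Cd52 and Aif1. The calls of Marco, Cd52 and Aif1 ended without 5C library 1, without 5C library 2 and without 5C-C library 2, and those of Cd52 and Aif1 also with library totals only and in a fit of the 2 groups alone. In 5C-C, Cd52 was at 2.12 and 10.8 FPKM and Aif1 at 0.798 and 2.69 FPKM, against 3.24 and 2.74 and 0.603 and 0.829 in 5C, so that library 1 of 5C-C lay below or within the 5C range. Adgre1, Vsig4 and Msr1, surface receptors that rose in 5C-G, did not pass in 5C-C, with Vsig4 at -0.46 and Msr1 at -0.65. Under the GC and length offset, 10 members rose in 5C-C and none fell, 8 of them among the 17 called without it, and the median was 0.66. 

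Removal of ETC-1002 moved 2 members, Fcgr2b and Ms4a7, both higher, where 0.654% of all genes rose, with a median of 0.22. Over all genes 1.31% fell in edgeR. No member was lower past the fold threshold in edgeR, DESeq2 or limma, or at an unadjusted p under 0.05. Neither Fcgr2b nor Ms4a7 was called without 5C library 1, and Ms4a7 was not called without any 1 of the 4 libraries. The 5C-S library, which has no replicate and therefore no test, had 0 members more than 1 above 5C on the log2 scale and 3 more than 1 below it, where 10.2% of all genes were above and 9.36% below. The 3 were Lst1 and Clec4f, both with 0 counts in 5C-S, and Cd86 with 22 counts. Its median difference from 5C was -0.09. Of the members, 12 lay above both 5C libraries, 16 below both and 8 between them. These positions were not counted over all genes, so there is no background to set them against.

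**Figure D3:**
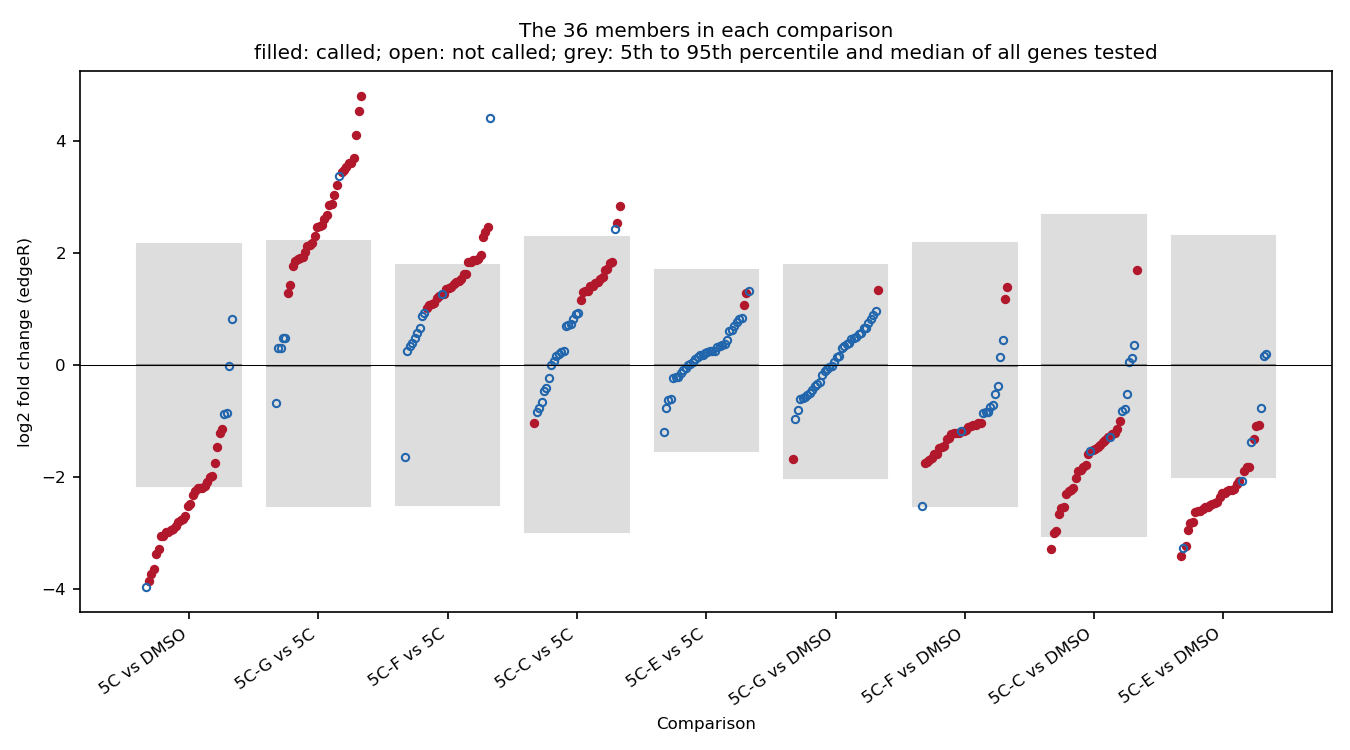
The 36 members are drawn in each of 9 comparisons by log2 fold change from edgeR, sorted within a comparison. Filled points are called and open points are not, and grey bars span the 5th to the 95th percentile of all genes tested with their median. Most members lie below the bar in 5C against DMSO, and many lie above it in 5C-G against 5C.

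The groups were also compared with DMSO, which all these comparisons share, so their counts stand side by side only. In 5C-G against DMSO, 1 member (Lgals3) was higher and 1 (Fgr) lower, against backgrounds of 3.11% and 2.72%. The median was 0.11 and the members ranged from -1.68 to 1.35, a range that does not show that the levels were equal. The count rested on the libraries of 5C-G. Without library 1, 8 members were called, C1qa, C1qb, Marco, Ms4a7 and Trem2 among those higher and Ptprc among those lower, and without library 2 none was by the same edgeR test. In 5C-C against DMSO, 1 member (Cd14) was higher and 27 lower (backgrounds 10.4% and 11.7%, median -1.5). In 5C-E against DMSO, 30 were lower and 0 higher (backgrounds 3.68% and 2.41%, median -2.28). No member was higher there past the fold threshold by edgeR, DESeq2, limma or an unadjusted p. In 5C-F against DMSO, Cd36 and Cd14 were higher and 23 members lower (backgrounds 3.18% and 4.22%, median -1.16). Without DMSO library 1 or 5C-F library 1, that count of called members went from 25 to 16.

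Direct tests between removals compared their effects without 5C. Members were higher in 5C-G than in 5C-C for 26 genes and lower for Cd14 (backgrounds 4.14% and 3.21%), with a median of 1.81. Against 5C-E, 30 were higher in 5C-G and none lower (backgrounds 5.19% and 4.12%, median 2.19). No member was lower there past the fold threshold by edgeR, DESeq2, limma or an unadjusted p. Against 5C-F, 21 were higher in 5C-G and Cd36 was lower (backgrounds 3.76% and 4.27%, median 1.25), a call that the offset, among other settings, did not keep. Csf1r, Vsig4, Msr1 and Ptprc were among the 14 that did not pass between 5C-G and 5C-F, while C1qa (log2 fold change 2.43, SE 0.37, adjusted p = 2.4e-04), Lyz2 (log2 fold change 1.59, SE 0.22, adjusted p = 1.1e-04) and Trem2 (log2 fold change 1.67, SE 0.29, adjusted p = 7.1e-04) did.

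GC content of the transcripts moved with these results. Canonical transcripts of the members ran from 37.6% to 59.2% GC with a median of 51.5%. Across the 36 members, the log2 fold change in 5C-C against 5C had a Spearman correlation of 0.46 with GC content, and over 19787 genes it was 0.41, a description across genes that share libraries. The 18 members of higher GC had a median of 1.41 and the 18 of lower GC a median of 0.18. With the offset the correlation was 0.03 and the medians were 0.79 and 0.41. In 5C-G against 5C the correlation went from 0.46 to 0.17, and the medians from 3.13 and 1.93 to 2.60 and 2.17, with 30 members called either way. In 5C against DMSO it was -0.21 before and -0.14 after. Tyrobp, Trem2, Spi1, C1qc, Fcgr3, Lgals3, Marco, Cd52 and Ptprc lost their call in 5C-C under the offset and Lyz2 and Gpnmb gained one. Among these losses, Fcgr3 remained just under the fold threshold (0.94), C1qc was at 0.84 and Marco at 0.81, while Tyrobp and Trem2 dropped to 0.22 and 0.22. Any further part of base composition in the 5C-C differences was not tested.

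**Figure D4:**
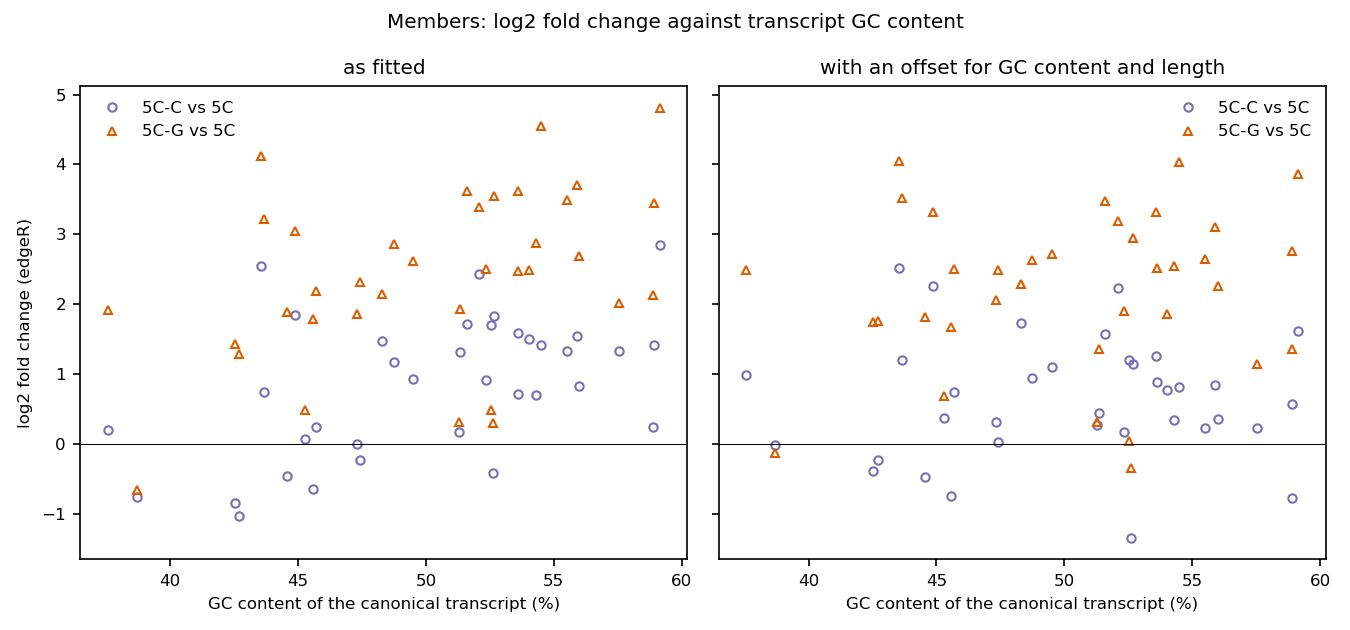
Log2 fold change of the members from edgeR against the GC content of the canonical transcript in percent, for 5C-C (circles) and 5C-G (triangles) against 5C, as fitted on the left and with the GC and length offset on the right. The upward slope of the circles on the left is absent on the right, and the triangles stay above 0 for most members.

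How closely each member tracked the others was described by Pearson's r over the 13 libraries. It was taken between the member's log2 CPM (counts scaled to the library total times its TMM factor) and the mean z-score of the other 35. The libraries share groups, so this carries no test. The closest were Laptm5 (0.99), Lyz2 (0.99), Fcgr3 (0.99), Tyrobp (0.99) and Csf1r (0.99), and 22 members had an r of at least 0.9, with a median of 0.93 over all 36. The lowest were Cd36 (-0.29), Cd14 (0.02), Lst1 (0.40), Fgr (0.69), Trem2 (0.74), Clec4f (0.77), Ptprc (0.78) and Lgals3 (0.80).

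Macrophage genes outside the members were counted as well. Of 30 such genes, 25 fell in 5C against DMSO and none rose (median -2.64), against backgrounds of 2.89% and 1.66%. In 5C-G against 5C, 24 rose and 1 fell (backgrounds 7.47% and 5.64%), and in 5C-F 11 rose (background 2.69%). In 5C-C 3 rose and 2 fell, near the shares over all genes (9.65% and 10.5%), and in 5C-E none rose and 1 fell (0.654% and 1.31%). Mrc1, the mannose receptor, was at 136 and 136 FPKM in DMSO, 17.1 and 19.3 in 5C, 89.4 and 63.9 in 5C-G, 24.5 and 19.3 in 5C-C, 31.2 and 30.9 in 5C-E, 30.01 and 25.9 in 5C-F and 16.1 in 5C-S, with 5C-E above 5C-F. Folr2, the folate receptor of resident macrophages, fell in 5C (log2 fold change -3.74, SE 0.46, adjusted p = 2.7e-05) and rose in 5C-G (log2 fold change 3.16, SE 0.45, adjusted p = 1.1e-04). In 5C-C, Mertk, a receptor for dying cells, fell against 5C (log2 fold change -2.07, SE 0.22, adjusted p = 1.0e-05). Axl, of the same receptor family, was at 118 and 117 FPKM in DMSO, 101 and 109 in 5C and 137 and 117 in 5C-G, and did not pass in either comparison.

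Among 19 tested ligands, partners and transcription factors around the CSF1 receptor, 7 fell in 5C and none rose (2.89% and 1.66% over all genes), and 8 rose in 5C-G and none fell (7.47% and 5.64% over all genes). Under the GC and length offset 4 rose and 1 fell in 5C-G. Irf8, a transcription factor of the monocyte and macrophage lineage, fell in 5C by -3.1 on the log2 scale and rose in 5C-G by 3.06. Apoe, the lipid carrier made by macrophages and hepatocytes alike, was at 3918 and 3752 FPKM in DMSO, 710.4 and 816 in 5C and 4155 and 6133 in 5C-G. Lysosome genes outside the members were counted too. Of 25, 7 fell in 5C (median -0.39, background 2.89%) and 8 rose in 5C-G (median 0.82, background 7.47%). In 5C-F 1 rose (background 2.69%), in 5C-C 6 rose and 1 fell (backgrounds 9.65% and 10.5%), and none passed in 5C-E. The offset left 5 lower in 5C, 0 higher in 5C-F, and 4 higher and 0 lower in 5C-C. Ctsb and Ctsd, the cathepsins B and D, rose in 5C-G by 1.95 and 2.17, and Psap, the saposin precursor, stood at 933 and 987 FPKM in DMSO, 469.5 and 469 in 5C and 1030.1 and 805 in 5C-G.

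Markers of other white blood cells were summed in each library. The 8 measured neutrophil markers summed to 0.714 to 8.96 FPKM, the 6 of T and NK cells to 0.219 to 1.56, the 8 of B cells to 0 to 0.770 and the 7 of dendritic cells to 0.994 to 2.64, most of the last from Zbtb46. Depending on the group, 2 to 6 of the neutrophil, 2 to 4 of the T and NK cell, 2 to 7 of the B cell and 2 to 5 of the dendritic cell markers were at or under 3 counts in every library of the group. The members, by the same sum, ran from 923 to 9154 FPKM. The sum of neutrophil markers was highest in 5C-C, where Ltf was at 5.16 and 2.78 FPKM and S100a8 at 3.71 and 3.92 FPKM. These values lay above the highest library of Cd86, though S100a8 was highest in DMSO library 2 (4.25 FPKM). Ltf rose in 5C-C against 5C (log2 fold change 4.55, SE 0.89, adjusted p = 8.8e-04). Liver cell markers moved between groups as well. Of 12 hepatocyte markers, 2 fell in 5C against DMSO (background 2.89%), and 2 rose and 5 fell in 5C-G against 5C (7.47% and 5.64%). In 5C-C 5 fell (10.5%), in 5C-E 7 fell (1.31%) and in 5C-F 3 rose (2.69%). Alb was at 9711 and 8604 FPKM in DMSO, 9437 and 9425 in 5C, 4136 and 4482 in 5C-G, 3433 and 2553 in 5C-C, 2719 and 2122 in 5C-E, 18255 and 13341 in 5C-F and 5143 in 5C-S, lowest in 5C-E. The 10 stellate cell and fibroblast markers summed to 763 to 1749 FPKM, 8 cholangiocyte markers to 1472 to 3444 FPKM, most of it Spp1, and 9 endothelial markers to 4.77 to 25.7 FPKM. Of the stellate and fibroblast markers 3 rose and 1 fell in 5C against DMSO (backgrounds 1.66% and 2.89%), and 1 rose and 4 fell in 5C-G against 5C (7.47% and 5.64%). The part of cell composition in the members' differences was not tested.

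**Figure D5:**
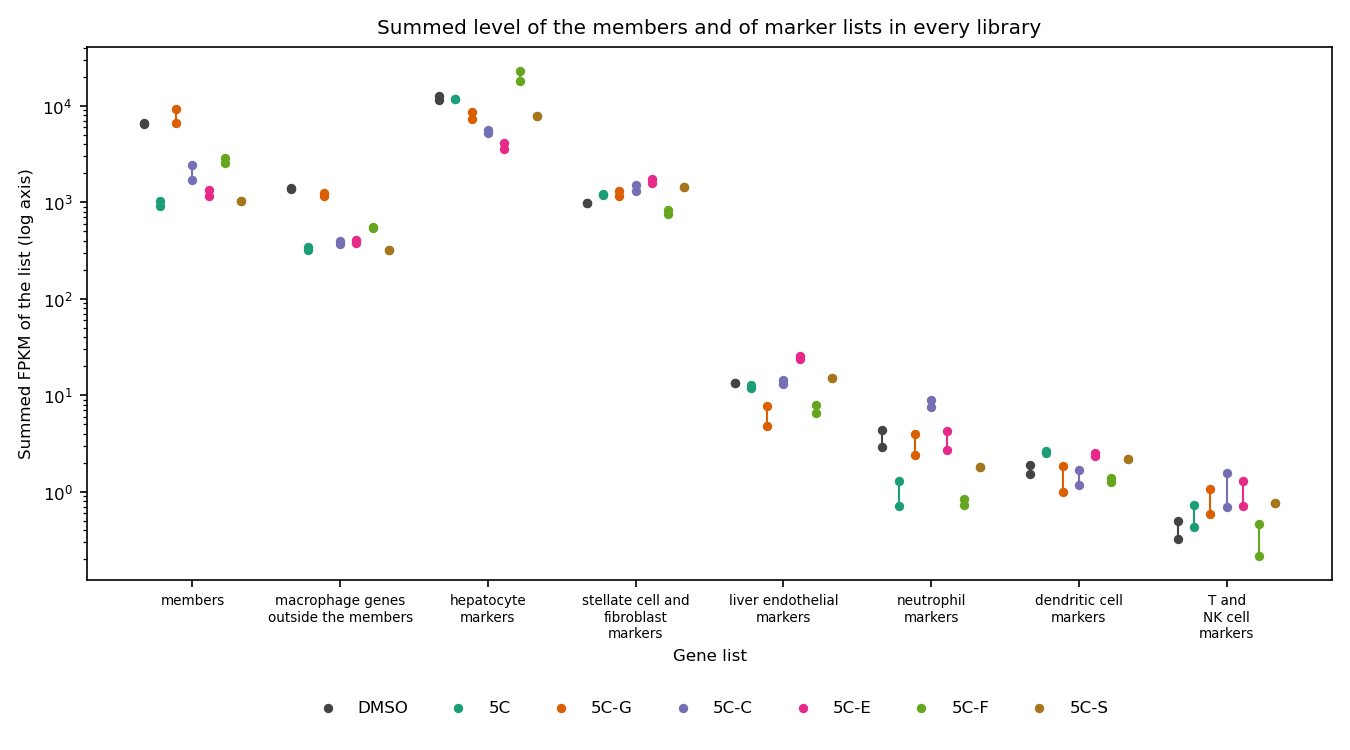
Summed FPKM of the 36 members and of 7 marker lists, on a log axis, with 1 point per library, a line joining the libraries of a group and colour for the group. The members and the other macrophage genes drop from DMSO to 5C and return in 5C-G, the sums of hepatocyte and of stellate and fibroblast markers stay high in every library, and the sums of the other white blood cells stay under 9 FPKM.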

How the data were processed

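RNA-seq libraries of cultured mouse hepatocytes were analysed from 2 deposited tables of 13 libraries in 7 groups. The authors made the count table by counting fragments per gene on GRCm39, and the submitters' processing notes name featureCounts, Subread and DESeq2; the aligner, annotation release and strand setting are not given in the sources used here. For 27140 of 27141 genes, the deposited counts and FPKM values implied the same gene length in every library within 0.2%. Column names give the group of each library but not its sample, so libraries were numbered by column. Differences were tested on counts with edgeR 4.0.16 (R 4.3.3): TMM scaling, filterByExpr with a minimum count of 10, 1 quasi-likelihood fit of all 13 libraries with 7 group means and 6 residual degrees of freedom, and Benjamini-Hochberg adjustment over 19884 genes. SE was the absolute log2 fold change over the square root of F. Calls needed an adjusted p under 0.05 and a log2 fold change beyond 1, and every alternative kept that fold threshold. The 5C-S group, with 1 library, was not tested. Depth of 30195867 to 45491932 counts per library limits low genes such as Clec4f and Lst1. Intervals and floors of 3 counts cover counting error only. Alternatives were relative log expression factors, library totals, no filter, DESeq2 1.42.0, limma 3.58.1 on log2(FPKM + 1 or + 0.1) with a mean of at least 0.1 FPKM or every gene, the 2 groups alone, an unadjusted p, each library left out, and, chosen after seeing the data, an offset for transcript GC content and length (19787 genes with a value). The scripts were tested on simulated data. The members, given as a list of symbols with no threshold on measured values, and the other lists were chosen with earlier results of these data known. All members may be named, with values in every library for the main ones of each role. Genes outside the members were named if among the 3 highest by mean FPKM of their list or the 2 with the largest called change in a comparison, except Timd4, Csf1r's neighbour Hmgxb3 and Lyz1, which were named after their values or positions were seen. Some items are not reported here.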

Additional observations from a re-analysis of the deposited data

How the results depend on the processing

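No paired analysis was possible because library numbers mark no shared culture and the columns cannot be matched to the numbers in the sample titles. Across the alternatives with all libraries, the members called numbered 25 to 32 in 5C against DMSO, 26 to 31 in 5C-G against 5C, 10 to 17 in 5C-C, 0 to 3 in 5C-E, 16 to 27 in 5C-F and 1 to 3 in 5C-G against DMSO. Counts that moved by more than 1.5 times were those in 5C-C against 5C (17 as reported), with 11 by limma on log2(FPKM + 1), 10 by the same on every gene and 10 under the GC and length offset; in 5C-E against 5C (2 as reported), with 0 by limma on log2(FPKM + 1), 1 on log2(FPKM + 0.1) and 0 on every gene; in 5C-F against 5C (25 as reported), with 16 by limma on every gene; and in 5C-G against DMSO (2 as reported), with 1 by limma on log2(FPKM + 1) on either gene set. The cause was not tested. Leaving out 1 library at a time gave 0 to 2 members in 5C-E against 5C (0 without 5C library 1), 0 to 8 in 5C-G against DMSO (8 without 5C-G library 1 and 0 without library 2) and 16 to 21 in 5C-F against DMSO (16 without DMSO library 1 or 5C-F library 1). It gave 26 to 27 in 5C against DMSO, 27 to 30 in 5C-G against 5C, 12 to 19 in 5C-C against 5C and 19 to 23 in 5C-F against 5C. With a library left out, the lone library was assumed to vary like the other groups. Of 145 log2 fold changes of single genes, none changed sign. Over the settings with all libraries, 1377 values were on the same side of the threshold, 65 dropped under it and 8 passed it, and with 1 library left out the numbers were 521, 49 and 10.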
